A study of Mus musculus with 8 samples.

Results

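The presynaptic SNARE machinery was followed through 8 genes, namely Snap25, Stx1a, Vamp1, Vamp2, Cplx1, Cplx2, Nsf and Napb. They were chosen by name as SNAREs, complexins and SNARE regulators, with earlier results of these data known. By their Ensembl identifiers they were found among the 22430 genes of the count table, in which all 8 were present. Of the 8, 7 had a mean count over 5 across the libraries and were tested together with 9375 genes in all; Cplx2 was too sparse to be tested.

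The libraries came from brain hemispheres of male mice of the inbred C57Bl/6JRj strain, without any genetic or drug treatment. There were 4 young adult mice of 6 months (6m) and 4 aged mice of 24 months (24m), with 1 library per mouse. RNA was sequenced by Oxford Nanopore (ONT) direct RNA sequencing, in which native RNA molecules pass through the pore, and the values are raw reads per gene. The sample labels name a poly(A) cDNA kit where the study's methods describe the direct RNA protocol, and the methods were followed here.

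SNARE proteins drive the fusion of synaptic vesicles with the presynaptic membrane. A synaptobrevin (Vamp1 or Vamp2) on the vesicle winds into a bundle of helices with syntaxin-1 and SNAP-25 on the plasma membrane, complexins clamp and then promote the fusion step, and the ATPase NSF with its adaptors, the SNAPs, pulls the spent bundle apart for reuse. Vamp1 prevails in spinal cord and brainstem and Vamp2 in the forebrain.

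Several of the 8 genes have a paralogue that makes a related protein, so the stretches where their messages are hardest to tell apart are shown first. Over the longer coding sequence of a pair, 53.39% of bases were identical for Vamp1 and Vamp2, 79.75% for Cplx1 and Cplx2, and 75.36% for Napb and Napa. The windows of 60 coding bases with the fewest differences are written 5′ to 3′ as the transcript reads, on GRCm39 (GENCODE vM39), with the bases that differ between paralogues in capitals. For the synaptobrevins, the windows lie at chr6:125195874-125195933, plus strand, exon 3 for Vamp1, and at chr11:68980557-68980616, plus strand, exon 3 for Vamp2, and differ at 5 positions.
Vamp1: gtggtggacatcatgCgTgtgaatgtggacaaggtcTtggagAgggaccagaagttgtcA
Vamp2: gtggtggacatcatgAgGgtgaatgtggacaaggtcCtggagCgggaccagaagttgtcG
For the complexins, the windows lie at chr5:108668001-108668060, minus strand, exon 4 for Cplx1, and at chr13:54527457-54527516, plus strand, exon 4 for Cplx2, and differ at 7 positions.
Cplx1: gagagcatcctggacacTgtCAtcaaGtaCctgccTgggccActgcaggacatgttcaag
Cplx2: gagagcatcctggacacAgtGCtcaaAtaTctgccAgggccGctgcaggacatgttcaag
For the alpha- and beta-SNAPs, the windows lie at chr2:148545006-148545065, minus strand, exon 7 for Napb, and at chr7:15847401-15847460, plus strand, exon 7 for Napa, and differ at 4 positions.
Napb: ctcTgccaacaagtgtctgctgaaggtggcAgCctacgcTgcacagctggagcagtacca
Napa: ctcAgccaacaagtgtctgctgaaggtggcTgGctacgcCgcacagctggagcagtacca
The longest run of coding bases shared by a pair was 18 bases for Vamp1 and Vamp2, 32 for Cplx1 and Cplx2, and 26 for Napb and Napa. Snap25 shares 11 exon bases and Stx1a 67 with an annotated non-coding gene on the opposite strand. No transcript of another gene matched at least 50 percent of a member's canonical transcript at an identity of at least 95 percent.

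Library totals ranged from 573152 to 843706 reads at 6m and from 660398 to 1255424 at 24m and did not separate the ages (two-sided exact permutation test, p = 0.543). Levels are given as CPM, reads of a gene relative to all reads on genes, on TMM-scaled library sizes. Called changed were genes whose adjusted p (edgeR's quasi-likelihood test, Benjamini-Hochberg) did not exceed 0.05 and whose log2 fold change (log2FC, 24m over 6m) was 0.58 or more in either direction. On the second principal component of log2 CPM, which held 17.2% of the variance, 24m replicate 1 scored 38.4 and the other 7 libraries between -17.5 and 7.48. Results were therefore also computed without that library.

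Of the 7 tested genes, 6 were changed and higher at 24m, namely Snap25, Stx1a, Vamp2, Cplx1, Nsf and Napb, and none was changed and lower. Over all tested genes, 14.5% were changed in either direction and 10.3% were changed and higher at 24m. These shares were not matched for read count. The median of the mean counts was 23.5 over all tested genes. Napb had a mean count of 10.5 and the other tested members 77.9 to 377.2. The median log2FC of the 7 was 0.78, against -0.003 over all tested genes. Summed over the 8 genes, the level was 1179 to 1413 CPM in the 6m libraries and 1843 to 2451 CPM in the 24m libraries, so the ages lay apart. With DESeq2 in place of edgeR, 4 of the 7 were changed and higher (Stx1a, Vamp2, Cplx1 and Nsf), beside 6.71% of all tested genes. In bulk RNA of this kind, a larger share of cells that express a gene and more of its RNA per cell cannot be told apart.

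**Figure D1:**
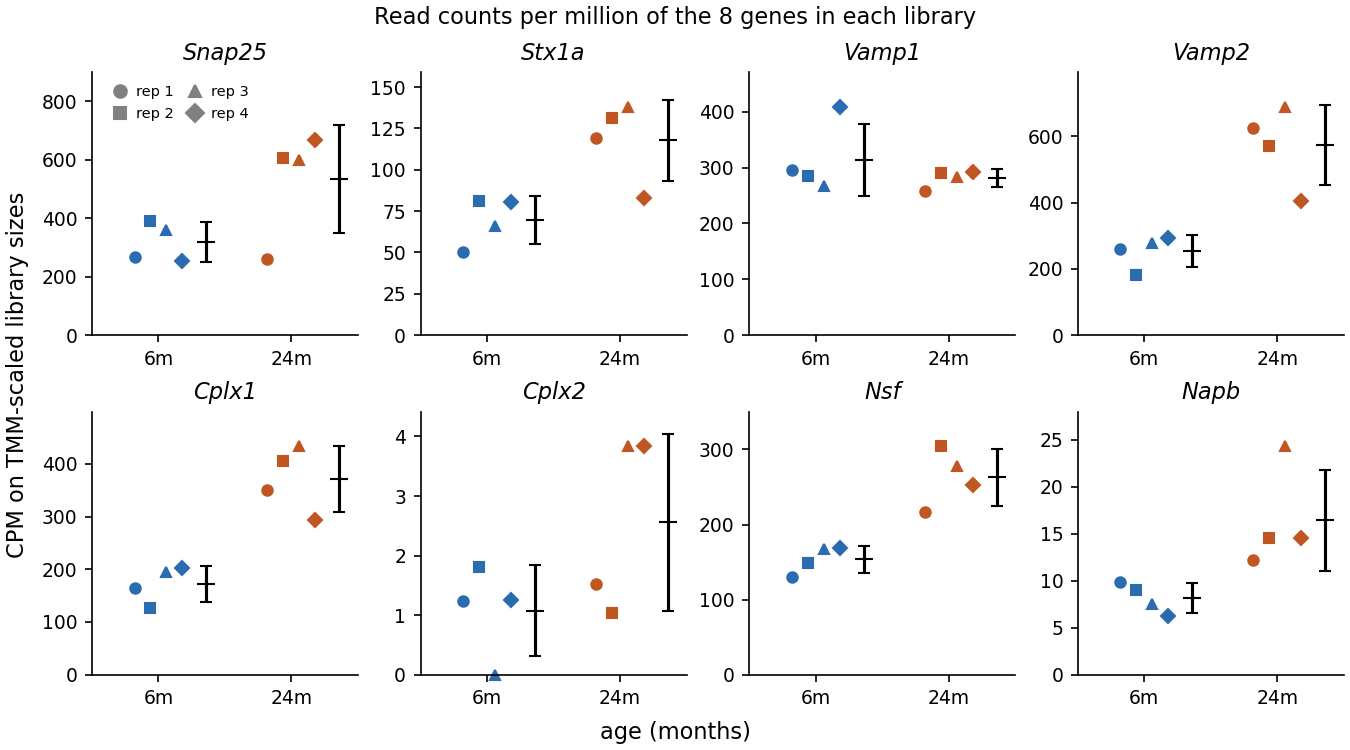
Level of each of the 8 genes (CPM on TMM-scaled library sizes, linear axes from 0) in the 4 libraries of 6m mice (blue) and the 4 of 24m mice (orange), with the symbol giving the replicate number and the black bar the mean ± SD. All 24m points lie above all 6m points for Stx1a, Vamp2, Cplx1, Nsf and Napb, whereas Snap25 has a 24m library at 260.6 CPM and the Vamp1 points overlap.

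Snap25 (ENSMUSG00000027273, chromosome 2, 136533580 to 136624362, plus strand, 8 exons in the canonical transcript) encodes the membrane-bound SNARE that gives 2 helices to the bundle. It had 268.3, 390.6, 360.9 and 252.4 CPM in 6m replicates 1 to 4 and 260.6, 607.2, 600.2 and 666.6 CPM in 24m replicates 1 to 4. Aged replicates 2, 3 and 4 lay far above every young adult library, but 24m replicate 1 lay within the young adult range. The young adult mean was 318.1 ± 68.0 CPM and the aged mean 533.6 ± 184.4 CPM (mean ± SD, 4 mice per age), with a log2FC of 0.77 (SE 0.179, 95% interval 0.405 to 1.14, adjusted p = 0.00316 by edgeR). The log2FC was 1.00 without 24m replicate 1 and between 0.67 and 0.88 without any other library. DESeq2 gave 0.76 and did not call it (adjusted p = 0.111), and neither did DESeq2 on quantile-normalized counts (adjusted p = 0.0932).

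Stx1a (ENSMUSG00000007207, chromosome 5, 135052139 to 135079963, plus strand, 10 exons) encodes syntaxin-1A, the plasma membrane SNARE with a transmembrane anchor. Its level was 50.5, 81.4, 66.0 and 80.4 CPM in the 6m libraries and 118.9, 131, 138.2 and 82.8 CPM in the 24m libraries. The ages did not overlap, although 24m replicate 4 exceeded the highest 6m library only slightly. Stx1a rose from 69.5 ± 14.5 to 117.7 ± 24.6 CPM (mean ± SD, 4 mice per age), a log2FC of 0.75 (SE 0.175, adjusted p = 0.00323 by edgeR).

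Vamp2 (ENSMUSG00000020894, chromosome 11, 68979316 to 68983210, plus strand, 4 exons) encodes the vesicle SNARE of most forebrain synapses and had the largest log2FC of the tested members. It had 259.7, 182.6, 277.5 and 292.6 CPM at 6m and 624.9, 571.8, 689.7 and 405.8 CPM at 24m. Every aged library exceeded every young adult library, with 24m replicate 4 the lowest of the aged. The mean rose from 253.1 ± 48.9 to 573.1 ± 121.5 CPM (mean ± SD, 4 mice per age), a log2FC of 1.16 (SE 0.137, adjusted p = 1.27e-06 by edgeR), which is a fold of 2.23.

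Vamp1 (ENSMUSG00000030337, chromosome 6, 125192340 to 125222927, plus strand, 5 exons) encodes the other neuronal synaptobrevin. It had 295.4, 285.7, 266.3 and 409.4 CPM at 6m and 257.6, 291.1, 282.8 and 292.2 CPM at 24m. The ages overlapped, and 6m replicate 4 stood above the other 7 libraries. The young adult mean was 314.2 ± 64.6 CPM and the aged mean 280.9 ± 16.1 CPM (mean ± SD, 4 mice per age), with a log2FC of -0.16 (SE 0.116, 95% interval -0.40 to 0.08, adjusted p = 0.349 by edgeR). The upper end of this interval lies below the log2FC of each other tested member. Without 6m replicate 4, the log2FC was 0.0046.

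Cplx1 (ENSMUSG00000033615, chromosome 5, 108666416 to 108697899, minus strand, 4 exons) encodes complexin-1, a small cytosolic protein that binds the assembled SNARE bundle. Its 6m libraries held 163.7, 126.6, 195.4 and 202.2 CPM and its 24m libraries 350.6, 405.5, 433.8 and 293 CPM. The lowest aged library, replicate 4, exceeded the highest young adult one. Cplx1 rose from 172 ± 34.6 to 370.7 ± 62.3 CPM (mean ± SD, 4 mice per age), a log2FC of 1.09 (SE 0.133, adjusted p = 1.87e-06 by edgeR) and a fold of 2.13.

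Cplx2 (ENSMUSG00000025867, chromosome 13, 54519154 to 54531730, plus strand, 4 exons) encodes complexin-2, which shares its role with complexin-1 and whose mRNA is known as abundant in brain. It was found in 1, 1, 0 and 1 reads at 6m and in 1, 1, 3 and 5 reads at 24m. These are 3 and 10 reads in all, a ratio of CPM of 2.67 with an exact 95% interval of 0.687 to 15.1 that covers counting error only. At 3 reads a library, the level that could be missed was 2.30 to 5.42 CPM, and no difference was detected. An edgeR fit without the low-count filter gave an adjusted p of 0.425 for it. The low count applies to reads assigned to this gene in the table. In the annotation used here, the non-coding gene Gm16248 overlaps Cplx2 on the opposite strand with 0 shared exon bases. The settings by which reads were assigned are not given in the sources used here. Whether assignment or annotation has a part in the count was not tested.

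Nsf (ENSMUSG00000034187, chromosome 11, 103712592 to 103844936, minus strand, 21 exons) encodes the ATPase that takes spent SNARE bundles apart. It had 130.5, 148.3, 166.8 and 168.3 CPM at 6m and 216.4, 304.6, 277.7 and 252.4 CPM at 24m. The ages lay well apart, and the spread within each was small. Nsf rose from 153.4 ± 17.8 to 262.8 ± 37.6 CPM (mean ± SD, 4 mice per age), a log2FC of 0.78 (SE 0.122, adjusted p = 6.29e-05 by edgeR).

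Napb (ENSMUSG00000027438, chromosome 2, 148535905 to 148574444, minus strand, 11 exons) encodes beta-SNAP, a brain-enriched adaptor that links NSF to the SNARE bundle. It was sparse, with 8, 5, 6 and 5 reads at 6m and 8, 14, 19 and 19 reads at 24m. In CPM these were 9.85, 9.04, 7.47 and 6.28 against 12.2, 14.6, 24.3 and 14.6, and the ages did not overlap. The mean rose from 8.16 ± 1.60 to 16.4 ± 5.39 CPM (mean ± SD, 4 mice per age), a log2FC of 0.99 (SE 0.353, 95% interval 0.270 to 1.72, adjusted p = 0.0438 by edgeR). This call was close to the threshold and held in 8 of 18 other settings. It was lost without any 1 of the 6m libraries, without 24m replicate 2 or 24m replicate 3 (log2FC 0.78), and with DESeq2 (log2FC 1.02). Napb shares 759 exon bases with Gzf1 on the opposite strand, a gene with 2 to 5 reads in each 6m library and 2 to 6 in each 24m library. Whether reads were counted by strand is not given in the sources used here.

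Between the ages, 5 of the 7 tested genes (Stx1a, Vamp2, Cplx1, Nsf and Napb) had every 24m library above every 6m library, which held for 11.1% of all tested genes. Among these genes the calls for Stx1a, Vamp2, Cplx1 and Nsf held in all 19 other settings, that for Snap25 in 17 of 19, and Vamp1 was called in none. Without 24m replicate 1, the log2FC was 0.75 for Stx1a, 1.11 for Vamp2, 1.11 for Cplx1, 0.86 for Nsf and 1.08 for Napb, and 6 of 7 genes were again changed.

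**Figure D2:**
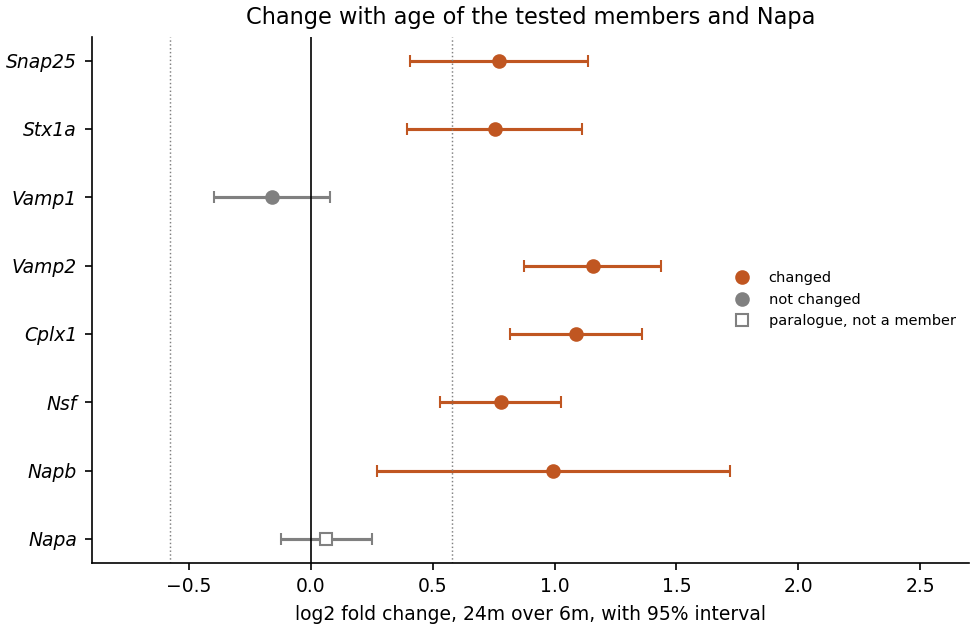
log2 fold change (24m over 6m, x axis) with its 95% interval for the 7 tested members (circles) and for Napa, a paralogue that is not a member (open square), orange where changed and grey where not, with dotted lines at an absolute log2FC of 0.58. Vamp2 lies farthest right among the members at 1.16, and the interval of Vamp1 spans 0.

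The aged libraries did not rank alike for every gene. The library 24m replicate 4 was the highest of the 4 for Snap25 and the lowest for Stx1a, Vamp2 and Cplx1. In contrast, 24m replicate 1 was the lowest for Snap25, Nsf and Napb and the second highest for Vamp2. As a description over the 8 libraries, the log2 CPM of Nsf followed the mean standardised level of the 7 tested members most closely (Pearson r = 0.972), while Snap25 followed it less (r = 0.706) and Vamp1 did not (r = -0.114). Each member is part of that mean, and the difference between the ages is part of each r.

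The levels of the genes were compared per kilobase of canonical transcript. At 6m, Vamp2 came first with 223.4 ± 43.1 CPM per kb, followed by Snap25 with 139.1 ± 29.7, Vamp1 with 107.1 ± 22.0 and Cplx1 with 78.2 ± 15.7 (mean ± SD, 4 mice), and each of these overlapped its neighbour in the order. Nsf with 40 and Stx1a with 32.1 CPM per kb overlapped each other and lay below Cplx1, and Napb with 1.85 lay far below both. At 24m, Vamp2 with 505.8 ± 107.2 CPM per kb lay apart from Snap25 with 233.3 ± 80.6, and Cplx1 with 168.6 ± 28.3 lay apart from Vamp1 with 95.8 ± 5.50. The order of Cplx1 and Vamp1 was thus exchanged between the ages. The scaling rests on annotated lengths, which run from 1133 bases for Vamp2 to 4936 for Cplx2, while a direct RNA read stands for 1 molecule whatever its length. Without it, the 6m order began with Snap25 (318.1 CPM), Vamp1 (314.2 CPM) and Vamp2 (253.1 CPM), whose libraries overlapped, and at 24m Vamp2 (573.1 CPM) and Snap25 (533.6 CPM) overlapped as well. The place of Vamp2 above Snap25 at 6m and its distance from Snap25 at 24m therefore depended on the scaling.

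Within the synaptobrevins, Vamp1 held 53.2, 61.0, 49.0 and 58.3% of the reads on Vamp1 and Vamp2 in the 6m libraries and 29.2, 33.7, 29.1 and 41.9% in the 24m libraries, so the ages did not overlap. The share was 55.4% ± 5.36 at 6m and 33.5% ± 6.01 at 24m (mean ± SD, 4 mice per age), a difference of -21.9 percentage points (two-sided exact permutation test, p = 0.0286, the smallest that 4 against 4 libraries allow). Adjusted over the 4 paralogue shares examined, p was 0.0571 (Benjamini-Hochberg), which misses 0.05. As no p of this test can fall below 0.0286, a share on its own could not pass 0.05 after the adjustment. These shares rest on 259 to 910 reads a library.

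Napb held 2.29% ± 0.435 of the reads on Napb and Napa at 6m and 4.33% ± 1.41 at 24m, with every aged library higher (exact permutation test, p = 0.0286, adjusted p = 0.0571). Cplx1 held 99.3% of the reads on Cplx1 and Cplx2 at both ages, a share that rests on the few reads assigned to Cplx2. Among the reads on all 8 genes, the share of Vamp1 was 24.3% ± 3.79 at 6m and 13.1% ± 1.37 at 24m without overlap (exact permutation test, p = 0.0286, adjusted over 8 shares 0.229). For the other 7 shares the same exact permutation test gave p-values of 0.0571 (Cplx1, from 13.3% to 17.2%) or more.

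**Figure D3:**
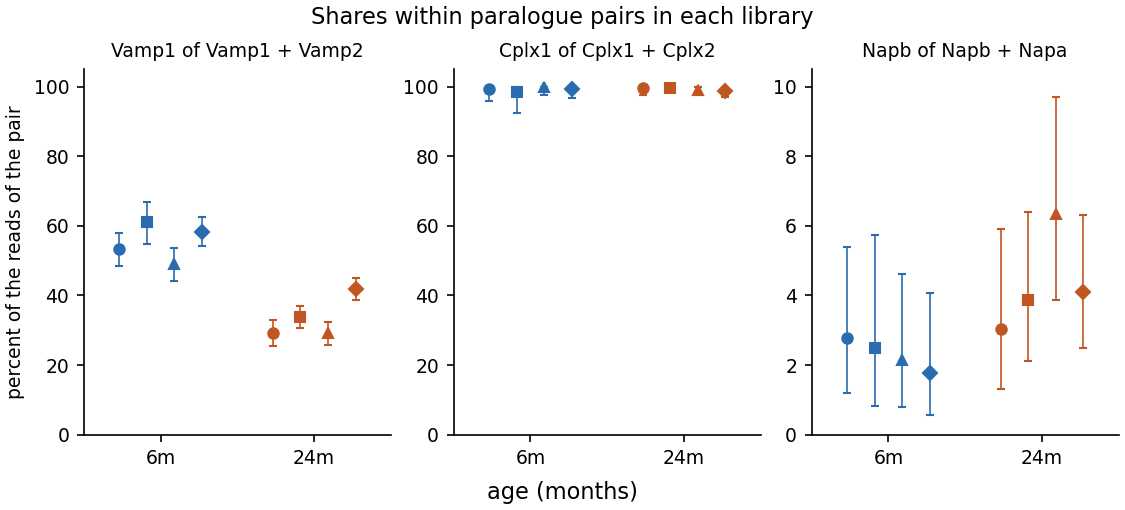
Percent of the reads of a paralogue pair that fell on the first gene, in each 6m (blue) and 24m (orange) library, with the 95% Clopper-Pearson interval of each library, which covers counting error only; the Napb axis ends near 10 and the others near 100. The Vamp1 share lies between 49.0 and 61.0% at 6m and between 29.1 and 41.9% at 24m.

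Of 15 listed paralogues outside the set, 8 were tested, 1 was changed and higher, and their median log2FC was 0.09. Napa, which encodes alpha-SNAP, the widely expressed adaptor of NSF, had 347.1 ± 4.92 CPM in young adult and 363.3 ± 19.2 CPM in aged mice (log2FC 0.06, adjusted p = 0.670 by edgeR). Snap47, a SNAP-25 relative, had 761.1 ± 49.2 CPM in young adult and 564.9 ± 49.8 CPM in aged mice, with every aged library lower (log2FC -0.42, adjusted p = 0.00159 by edgeR), which lies within the minimum of 0.58. Cplx4, a complexin of the retina, had no read in any library.

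Around the SNARE bundle, 73 of 96 further listed genes, likewise chosen with earlier results of these data known, were tested. Of these, 18 were changed and higher (24.7%) and 1 was changed and lower, against the 10.3% of all tested genes that were changed and higher. Among 16 tested genes of vesicle docking and priming, 2 were changed and higher and 1 was changed and lower, with a median log2FC of 0.02. Bsn, which encodes the active zone scaffold Bassoon, had 2, 2, 3 and 3 reads at 6m and 11, 16, 18 and 10 reads at 24m, and no fold is given against counts this low. Pclo, which encodes its relative Piccolo, fell from 28.4 ± 13.8 to 12.6 ± 5.16 CPM (log2FC -1.32, adjusted p = 0.00663 by edgeR), but the ages overlapped and the call was lost without 6m replicate 3. Prrt2, a presynaptic membrane protein, had a log2FC of -0.11, and its exons are shared with an annotated gene on the same strand, so its reads are uncertain.

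In the list of calcium sensors, which also holds relatives of them, 4 of 11 tested genes were changed and higher and none lower. The median log2FC was 0.56. Syt1 (log2FC 0.56, adjusted p = 0.0325 by edgeR) and Syt2 (log2FC 0.61, adjusted p = 0.333 by edgeR) were not changed, and the ages overlapped for both. Syt13, an atypical synaptotagmin, rose from 34.1 ± 4.64 to 81.4 ± 14.5 CPM (mean ± SD, 4 mice per age; log2FC 1.23, adjusted p = 2.24e-05 by edgeR). Syt11 (log2FC 0.82) and Syt4 (log2FC 1.00), synaptotagmins that do not bind calcium as sensors of fast release do, also rose. For Syt4 the ages overlapped, and its call was lost with DESeq2 on quantile-normalized counts. Syt7 was changed and higher too (log2FC 1.37, adjusted p = 0.0184 by edgeR), with no overlap of the ages. It was sparse, with 4, 2, 6 and 6 reads at 6m and 7, 14, 22 and 15 reads at 24m. Syt5 with a log2FC of 0.13 and Syt3 with a log2FC of -0.02 were the most abundant of the list and were not changed; the sign of Syt3 depended on the setting (up to 0.08).

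Vesicle proteins counted 9 of 18 tested genes as changed and higher and none as lower, with a median log2FC of 0.58. The glycoproteins Sv2a (log2FC 1.12) and Sv2b (log2FC 1.53), found on all synaptic vesicles or a subset of them, and the membrane protein Scamp5 (log2FC 1.25) rose with no overlap of the ages. In contrast, the 2 most abundant of the list were not changed, namely Atp6v0c, the pore subunit of the proton pump, with 2501 ± 73.2 and 2398 ± 97.7 CPM, and Rab3a, a vesicle GTPase, with 1408 ± 27.5 and 1320 ± 128.1 CPM at 6m and 24m. Both log2FC, -0.06 and -0.09, turned positive under other settings, where they reached 0.19 and 0.11.

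Among 5 tested SNARE chaperones, Sgta alone was changed (log2FC 0.58, adjusted p = 0.0101 by edgeR), at the fold minimum, and the call held in 12 of 19 other settings. It was lost when any 1 of 4 libraries was left out, with DESeq2 on quantile-normalized counts, with limma-voom and with the replicate block. Hspa8, whose protein refolds SNAP-25 at the terminal, had a log2FC of -0.14, up to 0.11 in other settings, and has pseudogene copies, and Sncb, which encodes beta-synuclein, had 0.09. Of 15 tested intracellular SNAREs, 1 was changed and higher, and the median log2FC was 0.18. That gene, Stx12, an endosomal syntaxin, rose from 35.7 ± 5.65 to 65.6 ± 12.5 CPM (mean ± SD, 4 mice per age; log2FC 0.89, adjusted p = 0.00119 by edgeR). The most abundant genes of the list, Use1 (log2FC -0.36) and Vti1b (log2FC -0.41), were within the fold minimum. Of the genes named from these lists, Snap47, Syt3, Syt11, Sv2a, Rab3a and Vti1b also share exon bases with a protein-coding gene on the opposite strand, and whether their reads were kept apart was not tested.

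**Figure D4:**
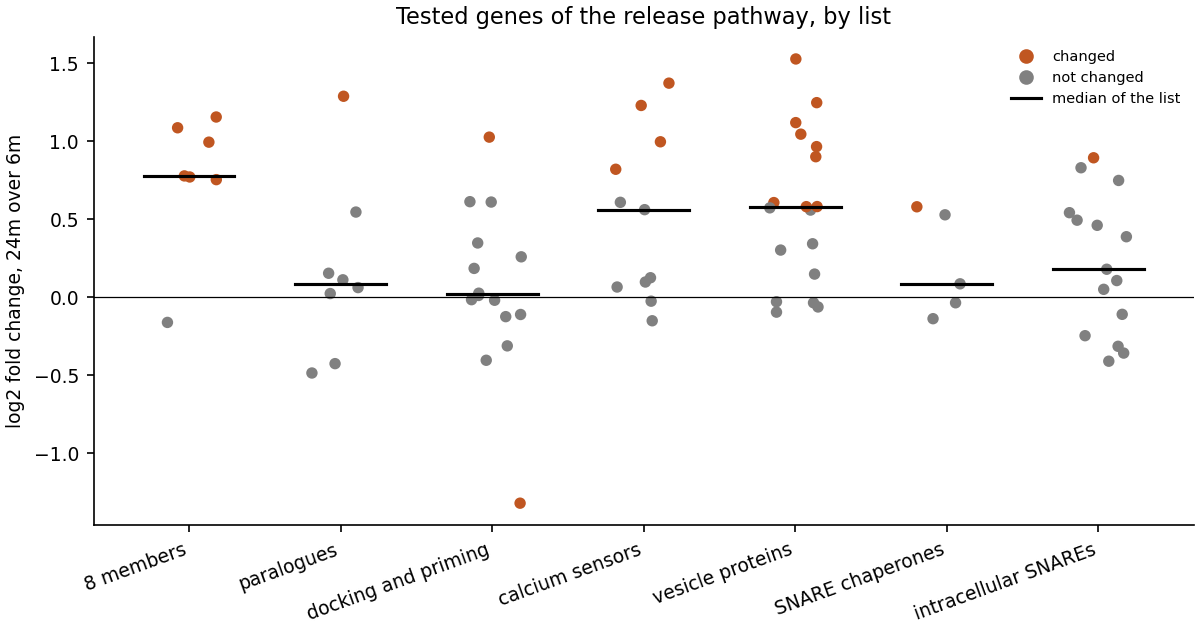
log2 fold change (24m over 6m, y axis) of each tested gene, by list, orange where changed and grey where not, with the median of the list as a black line; Bsn is not drawn, since its 6m counts were 3 or fewer. The medians run from 0.02 for docking and priming to 0.78 for the 8 members, of which 7 were tested.

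The genes whose log2 CPM followed the mean standardised level of the 7 tested members most closely were Fbxl16 (Pearson r = 0.985), Wbp2 (r = 0.982), Atp6v0a1 (r = 0.981), Ctsb (r = 0.980) and R3hdm4 (r = 0.978), over the 8 libraries and among 2720 genes with a mean count of at least 50. These values share the libraries and the difference between the ages, and they are a description.

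Markers of the cells in the tissue moved with age as well. Neuron markers had a summed level of 4341 to 4571 CPM at 6m and 4476 to 4835 CPM at 24m, and 1 of 8 was changed and higher. The summed level of 5 markers of cortical glutamatergic neurons was 549.7 to 630.4 CPM at 6m and 726.4 to 1060 CPM at 24m. That of 5 markers of cerebellar granule cells was 61.5 to 148.9 and 168 to 223.5 CPM, so the ages lay apart for both. The cortical marker Slc17a7, changed and higher, is also among the 9 changed vesicle proteins. The 6 oligodendrocyte markers went from 1870 to 2437 CPM at 6m to 2556 to 3448 CPM at 24m, also apart, as did the 8 microglia markers with 529.3 to 581.4 and 684.2 to 922.2 CPM. The 5 markers of oligodendrocyte precursors lay apart too, with 98.3 to 135.6 CPM at 6m and 138.7 to 197.1 CPM at 24m, and none of the 3 tested was changed. For endothelium (2 of 5 markers tested) and choroid plexus (4 of 5 tested) the median log2FC was -0.52 and -0.42, and no tested marker was changed. Markers of these 2 tissues, GABAergic and striatal neurons, Purkinje cells and brainstem overlapped between the ages in their summed level. So did the sum of 7 astrocyte markers, 2360 to 2871 CPM at 6m and 2360 to 3105 CPM at 24m, although of the 6 tested Gfap, Slc1a3 and Gja1 were changed and higher and Slc1a2 was changed and lower. Most of that sum was Aldoc, with a mean of 2341 CPM at 6m and 2148 CPM at 24m. All 5 blood genes were changed and lower at 24m, beside 391 of all 9375 tested genes. Their summed levels overlapped between the ages, with 6090 to 10031.6 CPM at 6m and 3350 to 6283 CPM at 24m. For 24m replicate 1, in which Snap25 was low, the cortical glutamatergic sum was 824.6 CPM, within the range of the other aged libraries. Its microglia sum of 922.2 CPM was the highest of all libraries. The same held for its sums of neuron (4835 CPM), astrocyte (3105 CPM), oligodendrocyte (3448 CPM) and Purkinje cell markers (906.9 CPM). The part that the makeup of the tissue has in the results for the 8 genes was not tested.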

How the data were processed

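The authors deposited raw read counts per gene, made by mapping direct RNA reads of 8 libraries to GRCm39 with minimap2 2.24 and counting them with featureCounts; the settings for strand, overlaps and multi-mapping reads are not given in the sources used here. The replicates are separate mice, grouped by the age in their labels.

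Symbols, positions and canonical lengths came from GENCODE vM39 (GRCm39), which matched 22281 of 22430 identifiers. Tests used edgeR 4.0.16 in R 4.3.3 (quasi-likelihood, TMM, age only) on genes whose mean count exceeded 5, with Benjamini-Hochberg adjustment; changed genes had an adjusted p up to 0.05 and a log2FC of 0.58 or more either way. The 9375 tested genes held 98.6% of the counts. On simulated counts edgeR recovered 76.1% of 197 changed genes with 3 false calls. How far these figures hold for the real libraries was not tested. Alternatives used DESeq2 1.42.0, limma 3.58.1, other scalings and filters, a replicate block and each library left out. Shares were compared with exact permutation tests (scipy 1.17.1), and copies were sought with BLAST+ 2.17.0.

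The members and gene lists were chosen with earlier results of these data known. From each list the text names the changed genes (at most 3 in each direction, by p) and the 2 most abundant. Napa, Syt1, Syt2, Syt7 and the marker Slc17a7 are named besides. A few genes picked in this way, and a share, are not reported here.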

Additional observations from a re-analysis of the deposited data

Results flagged for a closer look

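The values of the 8 genes, their shares and related measures were examined in 42 groups of 4 libraries for 1 library far from its 3 fellows (Dixon's test at 95 percent), which chance alone passes in about 1 of 20 groups, or 2.1 of these. This held for 2 groups. Snap25 had 260.6 CPM in 24m replicate 1, while the other 3 aged libraries held 600.2 to 666.6 CPM (gap over range 0.836). Cplx1 held 10.3% of the reads on the 8 genes in 6m replicate 2 and 13.9 to 14.6% in the other 3 young adult libraries (gap over range 0.837).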

How the results depend on the processing

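Between 4 and 6 of the tested members were changed under the 20 alternatives, and the calls for Stx1a, Vamp2, Cplx1 and Nsf and the lack of a call for Vamp1 held in all 19 fits. The Snap25 call was lost with DESeq2 (log2FC 0.76) and with DESeq2 on quantile-normalized counts (0.87). The Napb call was lost with DESeq2 (1.02), with DESeq2 on quantile-normalized counts (0.87), with limma-voom (0.80) and without the low-count filter (1.01). Napb did not pass a minimum of more than 5 counts in every library. With each library left out in turn, the log2FC ranged from 0.78 to 1.12 for Napb, which lost its call in 6 of 8, and from -0.23 to 0.0046 for Vamp1. Differences in shares near 0 changed sign, from -0.26 to 0.21 points for Cplx1 among the complexins (0.23 as a log2 ratio) and, of the reads on the 8 genes, from -3.28 to 3.06 for Snap25, from -0.289 to 0.525 for Stx1a and from -0.00321 to 0.584 for Nsf; the cause was not tested. With 3 libraries against 4, the smallest permutation p is 0.0571. DESeq2 called 834 genes changed and edgeR 1359. Of the changed genes, 71.2% were higher at 24m, but 84.5% with library sizes alone, which moved the median log2FC to 0.10, and 59.2% with limma-voom on quantile-normalized counts. Replicate numbers did not pair the mice: same-numbered libraries correlated between -0.16 and 0.06 in their deviations, and 1 of 8 correlated best with its own number. A fit with the replicate number as a block called the same 6 members (Snap25 0.71, Napb 1.01) and 1308 genes in all. Few reads limit the precision for Cplx2 and Napb.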
